A study of Homo sapiens with 10 samples.

Results

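Immediate-early and AP-1 genes were described here as 10 genes of 18279 with a value, namely FOS, FOSL1, FOSL2, JUN, JUNB, JUND, ATF3, EGR1, IER2 and IER3. They were taken by name, each through the probe set that the platform annotation assigns to it. Only IER3 had more than 1 probe set, and its probe set with the highest mean was used. The 10 Affymetrix arrays of total RNA came from a human lung adenocarcinoma line, A549, and from lines named AD32 and AD32 4E-BP1. A549 received 0.01% DMSO (4 arrays, labelled sensitive) or 32 nM discodermolide (2 arrays, labelled senescent). Discodermolide, from a marine sponge, stabilises microtubules. AD32 was grown in 32 nM discodermolide (3 arrays, labelled resistant), and AD32 4E-BP1, labelled sensitive, received 0.01% DMSO (1 array). All groups were kept in the same serum-containing medium. The name AD32 4E-BP1 refers to the translation repressor encoded by EIF4EBP1. The sources used here give neither its construct, nor the clonality of either line, nor the length of drug exposure.

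Immediate-early genes are transcribed within minutes of a growth factor or stress signal, without new protein synthesis, from regulators already present in the cell. Kinases of the ERK, JNK and p38 families act on factors such as SRF, its ELK partners, and JUN itself. FOS and JUN family proteins pair through leucine zippers as AP-1, which binds short DNA sites near genes of proliferation, invasion and inflammation. The transcripts decay fast, so their steady-state level reads both synthesis and decay.

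Levels are log2 signals as deposited, and a difference of 1 is a doubling of signal. Array medians lay between 6.50 and 6.63 and lower quartiles between 4.77 and 4.94. No detection call came with the values. Levels of different genes were not compared with each other, because each probe set has its own response. A gene was called where limma's adjusted p, over all 18279 genes, was under 0.05.

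Some arrays stood apart from their labels. A549 DMSO replicate 1 correlated best, across genes, with an A549 discodermolide array (Pearson r = 0.976), and AD32 replicate 3 with the AD32 4E-BP1 array (r = 0.979). The AD32 4E-BP1 array was most like A549 DMSO replicate 2 (r = 0.995). Over 20 mitotic genes the mean level was 6.85 on A549 DMSO replicate 1, and 9.94 to 10.10 on the other DMSO arrays. It was 6.70 and 6.90 in treated A549, 5.24 and 6.27 on AD32 replicates 1 and 2, 9.71 on AD32 replicate 3 and 9.90 on AD32 4E-BP1. A549 DMSO replicates 3 and 4 were nearly alike (median absolute difference 0.088, against 0.18 to 0.36 for other DMSO pairs). EIF4EBP1 stood at 11.61 on the AD32 4E-BP1 array and at 7.99 to 8.93 in AD32. Epithelial keratins KRT8 and KRT18 were high on every array (12.67 to 14.00), whereas the epithelial marker EPCAM (3.30 to 3.87) lay below the lower quartile. The mean of 8 epithelial genes was 8.83 to 8.97 in AD32 and 8.25 on both treated A549 arrays. It was 7.89 to 8.11 in DMSO and 7.91 on AD32 4E-BP1, so every AD32 array lay above all others. Of these genes, KRT7 alone separated AD32 from every other array (11.74 to 11.84 against 7.00 to 7.45). The AD32 range of each other gene on the list overlapped an A549 range. The mean of 5 leukocyte genes was 4.31 to 4.75. The pan-leukocyte gene PTPRC did not exceed 3.20 and LYZ ranged from 2.95 to 3.76. CD3E ranged from 4.62 to 5.25, while CD14 (4.99 to 6.14) and ITGAM (5.39 to 6.23) lay above the lower quartile on every array. Endothelial list means were 4.40 to 4.79 over 5 genes, and DCN, a fibroblast gene, stood at 2.88 to 3.22. The mean of 6 fibroblast genes was 5.34 to 5.63 in AD32 and 5.85 to 6.08 in treated A549. It was 5.66 to 6.11 in DMSO and 5.69 on AD32 4E-BP1. Every AD32 array lay below all others, but AD32 replicate 3 (5.63) lay only just below A549 DMSO replicate 1 (5.66). Among these 6 genes, COL3A1 alone separated AD32 from every other array (at most 6.52 against at least 7.45). The AD32 range of each other fibroblast gene overlapped an A549 range. The part of these marker shifts in the AD32 results below was not tested.

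The members split in AD32. ATF3, JUN and IER3 rose against A549 in DMSO, FOS was low on every AD32 array without passing the threshold, and the other 6 lay between. Of the 10 members, 3 were called higher and 0 lower, where 3.52% and 2.19% of all genes were called in those directions. On 4 members all AD32 arrays lay above all A549 DMSO arrays (8.9% of all genes), and on FOS alone they all lay below (6.48%). The median difference was 0.32 over the members and 0.01 over all genes. Growth in the drug and the line itself cannot be told apart here.

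In discodermolide-treated A549, 9 of 10 members had a higher mean than in DMSO (54% of all genes did), and 0 were called by limma (0.372% of all genes were). At an unadjusted p under 0.05 there were 3, JUN, FOSL2 and ATF3 (11.1% of all genes). Both treated arrays lay above all DMSO arrays for 6 members (15.2% of all genes). Except for JUN (8.59 against 7.97), the lowest treated array exceeded the highest DMSO array by little. The values were 8.185 against 8.181 for FOSL1, 9.698 against 9.689 for FOSL2 and 9.706 against 9.695 for JUNB. They were 7.27 against 7.22 for EGR1 and 6.32 against 6.24 for ATF3. The median difference over the members was 0.30, against 0.02 over all genes. Against treated A549, AD32 had 0 members called (3.74% of all genes) and 4 at an unadjusted p under 0.05 (15.5%), with 5 means higher (50.7% of all genes) and 5 lower. Comparisons with A549 in DMSO share the same 4 control arrays.

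**Figure D1:**
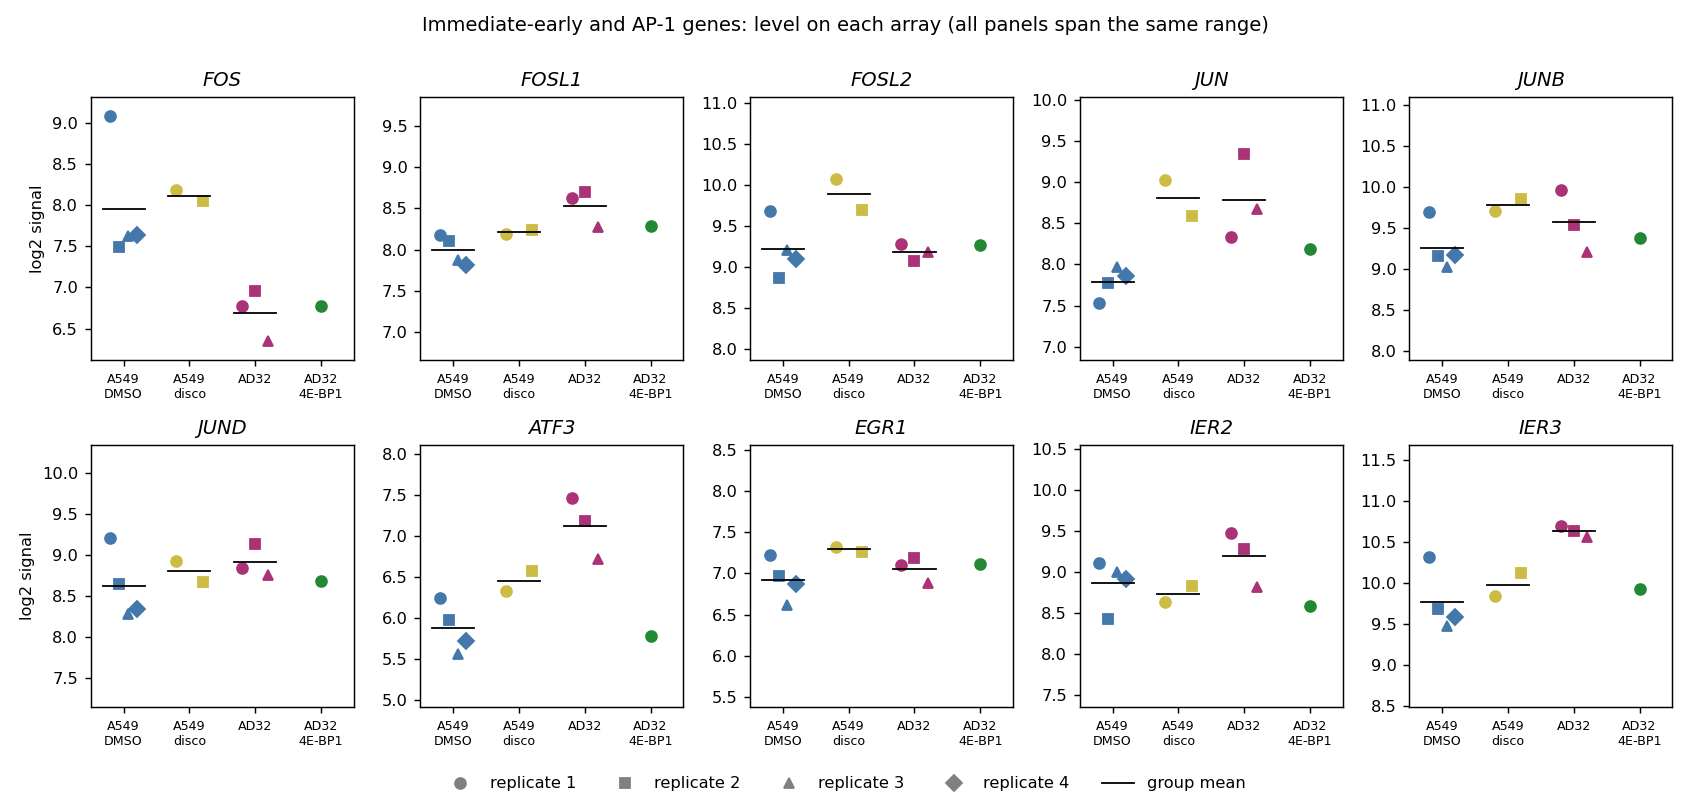
Level of each member on each array, as log2 signal, by group, with the replicate number as the symbol and the group mean as a bar (AD32 4E-BP1 is 1 array). FOS is 6.35 to 6.96 in AD32 and at least 7.50 on every A549 array, while ATF3 is 6.72 to 7.46 in AD32 and at most 6.57 on every other array.

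The members FOS, FOSL1 and FOSL2 belong to the Fos family, whose proteins cannot pair with themselves and need a Jun partner to bind DNA. FOS, the founding inducible member, read 9.09, 7.50, 7.63 and 7.64 on A549 DMSO replicates 1 to 4 and 8.18 and 8.05 on the treated arrays. On AD32 replicates 1 to 3 it read 6.77, 6.96 and 6.35, and on the AD32 4E-BP1 array 6.77. Every array of an AD32 line thus lay below every A549 array. The AD32 difference from A549 in DMSO was -1.27 (SE 0.36, 95% interval -2.09 to -0.44, adjusted p = 0.0824), which did not pass. Without A549 DMSO replicate 1, the highest array, the difference was -0.89 and passed (SE 0.17, adjusted p = 0.0136). Against treated A549 the difference was -1.42 (SE 0.44, adjusted p = 0.129). It was -1.42 with adjusted p = 0.00401 without A549 DMSO replicate 1, which enters that comparison only through the shared spread. In treated against DMSO A549, FOS differed by 0.16 (95% interval -0.78 to 1.09). That value was 0.53 without A549 DMSO replicate 1, 0.00072, 0.04 and 0.05 without DMSO replicates 2, 3 and 4, and 0.09 without treated replicate 1.

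FOSL1, which encodes FRA-1, an AP-1 subunit that persists longer than FOS after a stimulus, went the other way in AD32. It read 8.63, 8.70 and 8.28 on AD32 replicates 1 to 3, and 8.18, 8.11, 7.87 and 7.81 on the DMSO arrays. The groups did not overlap, and the difference was 0.54 (SE 0.15, adjusted p = 0.0729), short of the threshold. With AD32 replicate 3 left out it was called (0.67, adjusted p = 0.0272), as it was with A549 DMSO replicate 1 left out (0.61, adjusted p = 0.0367). Treated A549 lay at 8.18 and 8.24 and AD32 4E-BP1 at 8.29, just above the highest DMSO array.

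FOSL2, which encodes FRA-2, stood out in treated A549 instead. It read 10.08 and 9.70 on the treated arrays and 9.69, 8.86, 9.21 and 9.09 in DMSO. In AD32 it read 9.28, 9.07 and 9.19. The treated arrays lay above all other arrays, though replicate 2 (9.70) exceeded A549 DMSO replicate 1 (9.69) by little. The treated difference was 0.67 (SE 0.22, adjusted p = 0.311). Leaving out A549 DMSO replicate 1 gave 0.83, which was called (adjusted p = 0.0407). AD32 differed from A549 in DMSO by -0.04 (95% interval -0.48 to 0.41), which ran from -0.15 to 0.12 with single arrays left out, and from treated A549 by -0.71 (SE 0.24, adjusted p = 0.164).

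Of the Jun family, which can pair with itself or with Fos proteins, JUN was called in AD32 and the others were not. JUN read 7.53, 7.77, 7.97 and 7.86 on A549 DMSO replicates 1 to 4. It read 9.03 and 8.59 in treated A549, 8.34, 9.35 and 8.67 in AD32, and 8.19 on AD32 4E-BP1. All arrays in the drug lay above all arrays in DMSO, AD32 4E-BP1 included. In AD32 JUN rose 2.01-fold over A549 in DMSO (log2 difference 1.00, SE 0.24, adjusted p = 0.0432). In treated A549 the difference was of similar size, 1.03 (SE 0.27), and did not pass (adjusted p = 0.184). AD32 and treated A549 differed by -0.03 (95% interval -0.67 to 0.62). The AD32 call was not kept without AD32 replicate 2 (0.72, adjusted p = 0.112), nor without A549 DMSO replicate 2, 3 or 4 (0.0934, 0.0856 and 0.104) or either treated A549 array (0.0661 each). It also missed the threshold with A549 DMSO replicates 3 and 4 averaged (0.0945) and after median centring (0.0527).

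JUNB and JUND differed less. JUNB, an inducible subunit that activates many AP-1 sites less than JUN does, ranged from 9.02 to 9.69 in DMSO, 9.71 to 9.86 in treated A549 and 9.21 to 9.97 in AD32. JUND, the subunit most evenly expressed in resting cells, ranged from 8.28 to 9.21, 8.67 to 8.93 and 8.76 to 9.13 in the same order. Their AD32 differences from DMSO were 0.31 (95% interval -0.17 to 0.80) for JUNB and 0.29 (-0.22 to 0.81) for JUND. In treated A549 the difference of JUNB was 0.52 (-0.03 to 1.07), with both treated arrays above all DMSO arrays, 1 of them by little. That of JUND in treated A549 was 0.18 (-0.40 to 0.76). None of these was called. Single arrays moved them. The AD32 difference of JUNB was 0.11 without AD32 replicate 1 and 0.49 without AD32 replicate 3. That of JUND was 0.18 without AD32 replicate 2 or A549 DMSO replicate 3 and 0.49 without A549 DMSO replicate 1. The treated difference of JUND ran from 0.05 without treated replicate 1 to 0.38 without A549 DMSO replicate 1.

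ATF3, a stress-induced protein of the same leucine zipper class that pairs with Jun proteins, had the lowest adjusted p of the members. It read 6.24, 5.98, 5.56 and 5.73 on A549 DMSO replicates 1 to 4, 6.32 and 6.57 in treated A549, and 7.46, 7.18 and 6.72 in AD32. The 3 groups formed ascending steps without overlap, and AD32 4E-BP1 (5.78) lay within the DMSO arrays. The DMSO, treated A549 and AD32 4E-BP1 levels all lay below the median of their arrays, so the lower step lay wholly below it. ATF3 rose 2.37-fold in AD32 over A549 in DMSO (log2 difference 1.24, SE 0.22, adjusted p = 0.0117). Without AD32 replicate 2 it was not called (1.22, adjusted p = 0.0535). The upper neighbours in that order, AD32 and treated A549, differed by 0.67 (SE 0.26, adjusted p = 0.236). The lower neighbours, treated and DMSO A549, differed by 0.57 (SE 0.25, adjusted p = 0.433), and neither step passed.

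**Figure D2:**
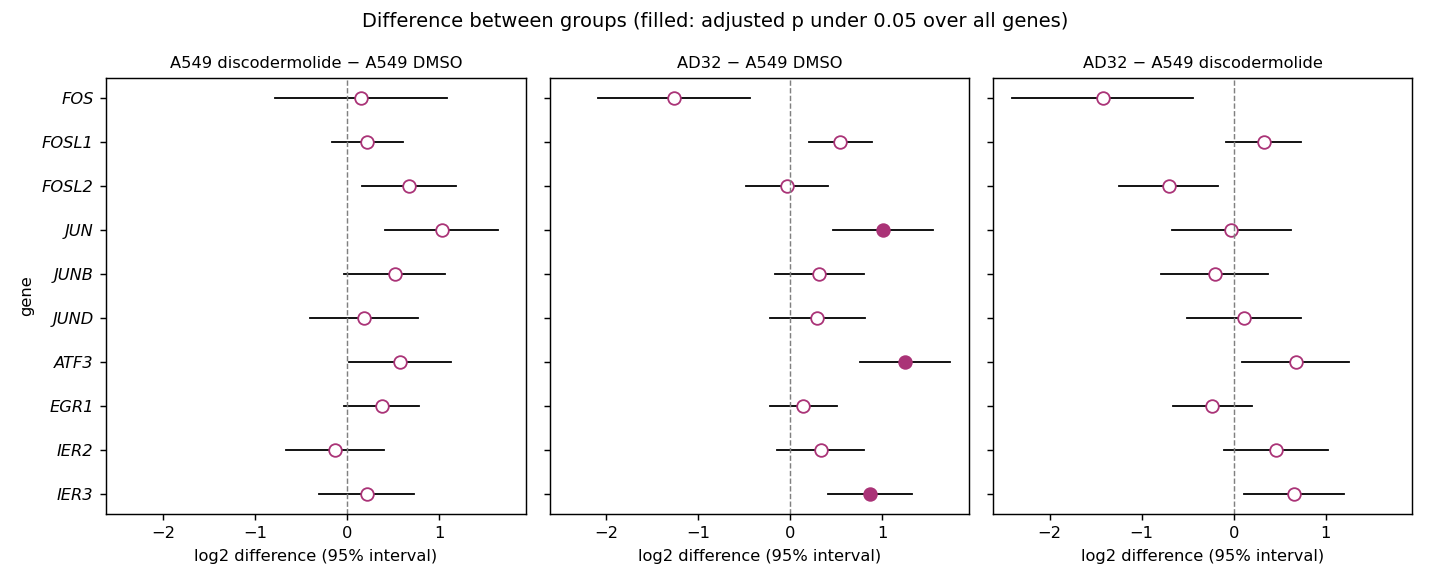
Difference in mean log2 signal between groups for each member, in 3 comparisons, with 95% intervals from the pooled fit. Filled points passed the adjusted p over all genes, which ATF3, JUN and IER3 did in AD32 against A549 in DMSO, and the interval of FOS lies below 0 in both AD32 panels.

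Because JUN and ATF3 both rose in AD32, their promoters were read from RefSeq (GRCh38.p14). The windows cover 250 bases before to 50 after a transcription start, and 8 of the 10 members had at least 1. FOSL1 and IER3 had none. Both strands were searched. The JUN-type AP-1 site, TGACATCA, was found in JUN and ATF3, on the strand of the gene, and in 2.61% of 35116 windows. The motif is named for JUN, so its match in JUN is not an independent observation. Its part in either rise was not tested. The standard AP-1 site, TGACTCA, was found in FOSL2 (4.95% of windows), and the cAMP response element, TGACGTCA, in JUND (1.85%). The CArG box, the element that SRF binds, was found in EGR1 (1.29%). Bases further than 250 before a start were not searched, so a member without a match may hold the motif there. The 3 lettered motifs differ at inner bases, so no match counted under more than 1 of them. The first 2 stretches below show the site found in both JUN and ATF3. IER3, also called, had no window to search. The last stretch shows the CArG boxes of EGR1, which was not called. Capitals mark the motif.
JUN promoter: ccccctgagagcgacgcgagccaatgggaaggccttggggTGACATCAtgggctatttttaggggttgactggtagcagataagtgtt
ATF3 promoter: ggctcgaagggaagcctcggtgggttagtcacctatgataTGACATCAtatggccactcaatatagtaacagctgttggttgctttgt
EGR1 promoter: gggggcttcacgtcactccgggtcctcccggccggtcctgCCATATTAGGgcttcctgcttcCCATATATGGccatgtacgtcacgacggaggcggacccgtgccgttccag
The JUN stretch is chr1:58784067-58784154 on the minus strand of chromosome 1, with its site 67 to 60 bases before the start. The ATF3 stretch is chr1:212565244-212565331 on the plus strand of the same chromosome, with its site 123 to 116 bases before the more upstream of 2 listed starts. The EGR1 stretch is chr5:138465334-138465445 on the plus strand of chromosome 5, with CCATATTAGG 105 to 96 and CCATATATGG 83 to 74 bases before the start. All 3 stretches end before the start they belong to. These matches describe letters and were not measured for binding here.

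EGR1, a zinc finger factor and a classic SRF target, differed little in AD32. It ranged from 6.62 to 7.22 in DMSO, 7.27 to 7.32 in treated A549 and 6.88 to 7.19 in AD32, and stood at 7.11 on AD32 4E-BP1. Its AD32 difference from DMSO was 0.14 (95% interval -0.22 to 0.50), and ran from 0.04 without A549 DMSO replicate 3 to 0.24 without A549 DMSO replicate 1. In treated A549 it was 0.38 (-0.03 to 0.78), with both treated arrays above all DMSO arrays by little.

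IER3 encodes a stress-induced protein that prolongs ERK signalling and modulates cell survival. It read 10.32, 9.68, 9.47 and 9.59 on A549 DMSO replicates 1 to 4 and 9.84 and 10.12 in treated A549. In AD32 it read 10.70, 10.64 and 10.56, the tightest AD32 values of any member (SD 0.07), and all above every other array. AD32 4E-BP1 stood at 9.93. IER3 rose 1.82-fold in AD32 over A549 in DMSO (log2 difference 0.87, SE 0.20, adjusted p = 0.0389). The call was not kept without AD32 replicate 1 or 2 (adjusted p = 0.127 and 0.125), A549 DMSO replicate 2, 3 or 4 (0.0919, 0.11 and 0.119) or either treated array (0.0661 each). It also missed the threshold with A549 DMSO replicates 3 and 4 averaged (0.114) or after a further quantile normalization (0.0835). Without A549 DMSO replicate 1, the highest DMSO array, the difference was 1.05 (adjusted p = 0.00235). The other 2 probe sets of IER3 held identical values to each other and gave a difference of 0.82. Against treated A549 it was 0.65 (SE 0.24, adjusted p = 0.212).

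IER2, a nuclear immediate-early protein, overlapped between all 3 groups. It ranged from 8.43 to 9.12 in DMSO, 8.63 to 8.83 in treated A549 and 8.82 to 9.48 in AD32. It was the sole member with a lower mean in treated A549 than in DMSO (-0.13, 95% interval -0.67 to 0.41). Its AD32 difference from DMSO was 0.33 (-0.14 to 0.80), with 0.19 without AD32 replicate 1 or A549 DMSO replicate 2 and 0.52 without AD32 replicate 3. The treated difference ran from -0.28 without A549 DMSO replicate 2 to -0.03 without treated replicate 1.

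Within groups, 1 array often led. A549 DMSO replicate 1 was the highest DMSO array for 9 of 10 members, where 41.5% of all genes were highest there. The exception was JUN, which was lowest on it. AD32 replicate 3 was the lowest AD32 array for 8 members, all but FOSL2 and JUN, where 40.5% of all genes were lowest there. A549 DMSO replicate 1 had a low mitotic list mean within its group and AD32 replicate 3 a high one (values above). The part of mitotic transcripts in the results was not tested. With both left out, 8 members were called in AD32 against A549 in DMSO (FOS lower, and ATF3, FOSL1, IER2, IER3, JUN, JUNB and JUND higher), where 28.3% of all genes were then called. In treated A549 5 were then called higher, FOS (0.53) among them, where 14.5% of all genes were called. Leaving both out also leaves the compared groups without overlap in mitotic list mean, which cannot be told apart from group there.

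**Figure D3:**
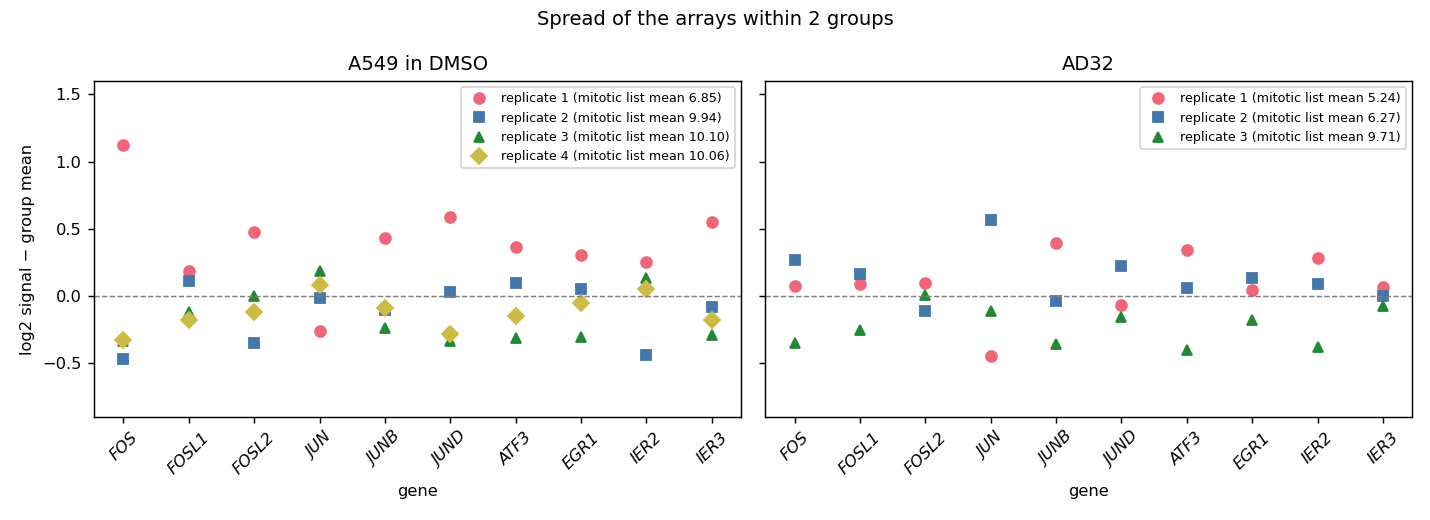
Deviation of each array from its group mean, in log2 signal, for each member in A549 in DMSO and in AD32, with the mean of the 20 mitotic genes in the legend. A549 DMSO replicate 1 is highest for 9 of 10 members and AD32 replicate 3 lowest for 8.

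The AD32 4E-BP1 array was compared with AD32 as the line labelled sensitive against its resistant counterpart. It is a lone array, assumed to vary like the other groups, and it differs from AD32 in drug as well as in line. By limma, 0 members were called against AD32 (0.919% of all genes), and 2 had an unadjusted p under 0.05 (9.46%). Against A549 in DMSO 0 were called and 0 had an unadjusted p under 0.05 (0% and 1.14% of all genes). The array lay below all AD32 arrays for 5 members (27.7% of all genes), ATF3, JUN, JUND, IER2 and IER3. ATF3 was -1.34 from the AD32 mean (SE 0.33, adjusted p = 0.15) and -0.09 from the A549 DMSO mean (95% interval -0.81 to 0.62). IER3 was -0.70 from AD32 (SE 0.30, adjusted p = 0.52) and 0.17 from A549 in DMSO (-0.50 to 0.84). JUN lay between both means, -0.59 from AD32 and 0.41 from A549 in DMSO. FOS kept to AD32, 0.08 above its mean (-1.17 to 1.32) and -1.19 from A549 in DMSO (-2.40 to 0.01). The array was nearer to the A549 DMSO mean for 7 of 10 members, as it was for 65.2% of all genes. ATF3 was called against AD32 without AD32 replicate 3 (-1.54, adjusted p = 0.031) and with array weights (-1.40, adjusted p = 0.01).

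The rest of the pathway was read from 5 lists of 87 genes, of which 75 had a value. The lists, like the members, were chosen with earlier results of these data known. How far that choice raised the counts over the all-gene shares was not tested. In AD32 against A549 in DMSO, 11 were called higher and 0 lower, where 3.52% and 2.19% of all genes were. None of 10 further AP-1 and leucine zipper partners was among them. FOSB, the closest relative of FOS, differed by 0.30 (95% interval -0.25 to 0.85). Among 20 other immediate-early genes 3 rose. KLF4, a zinc finger factor of epithelial differentiation, read 9.32, 9.39 and 8.68 in AD32 against 7.33 to 7.69 in DMSO (3.25-fold, adjusted p = 0.0013). NR4A1, an orphan nuclear receptor, rose 2.14-fold (adjusted p = 0.0168) and IER5, an immediate-early regulator of heat shock factor, 1.83-fold (adjusted p = 0.017). GADD45A, a growth-arrest gene, differed by 1.70 but its groups overlapped and it did not pass (SE 0.48, adjusted p = 0.0757).

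Upstream and feedback genes of the kinase pathways included 6 of these calls. Among 17 upstream genes, MAP2K3, which encodes a kinase acting on p38, rose 2.01-fold (adjusted p = 0.00349). The ternary complex factor gene ELK3 rose 1.74-fold (0.0105), and MAP2K1, which encodes a kinase acting on ERK, 1.66-fold (0.0282). The other 14 upstream genes were not called. Among 12 genes of ERK feedback and output, 11 had a higher mean in AD32 (51.8% of all genes did), with a median of 0.66 against 0.01 over all genes. In treated A549 the same count was 11, with a median of 0.43 against 0.02 and 0 called. SPRED1, an inhibitor of the pathway, rose 2.02-fold (adjusted p = 0.00312), the receptor gene EPHA2 1.83-fold (0.0111) and the ERK phosphatase gene DUSP6 3.98-fold (0.0115). DUSP6 read 10.00, 9.80 and 8.78 in AD32, 9.31 and 9.57 in treated A549, 6.86 to 8.13 in DMSO and 7.46 on AD32 4E-BP1, so the arrays in drug lay above the arrays in DMSO, as for JUN. Of 16 genes with known AP-1 sites, the neutrophil chemokine gene CXCL8 rose 3.85-fold (adjusted p = 0.012) and the urokinase receptor gene PLAUR 2.10-fold (adjusted p = 0.0429). CXCL8 averaged 7.66 in AD32 and 7.46 in treated A549, where it was not called, against 5.72 in DMSO. The list had 11 of 16 means higher in AD32 (median 0.17) and 13 of 16 in treated A549 (median 0.48).

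Leaving out AD32 replicate 1 or 2 ended the calls of NR4A1 (adjusted p = 0.0712 and 0.0765), IER5 (0.07 and 0.0751), MAP2K1 (0.0848 and 0.112), DUSP6 (0.0524 and 0.0561) and PLAUR (0.0707 and 0.0759). That of CXCL8 ended without replicate 2 (0.0543). Those of NR4A1, IER5, MAP2K1 and PLAUR also ended without A549 DMSO replicate 3 (0.0583, 0.057, 0.0692 and 0.0877) or 4 (0.0558, 0.0553, 0.0819 and 0.1). Without A549 DMSO replicate 2, IER5 (0.0502) and PLAUR (0.102) ended, and without either treated array MAP2K1 (0.0566) and PLAUR (0.0727). KLF4, MAP2K3, ELK3, SPRED1 and EPHA2 were called in AD32 against A549 in DMSO under all 20 alternatives.

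**Figure D4:**
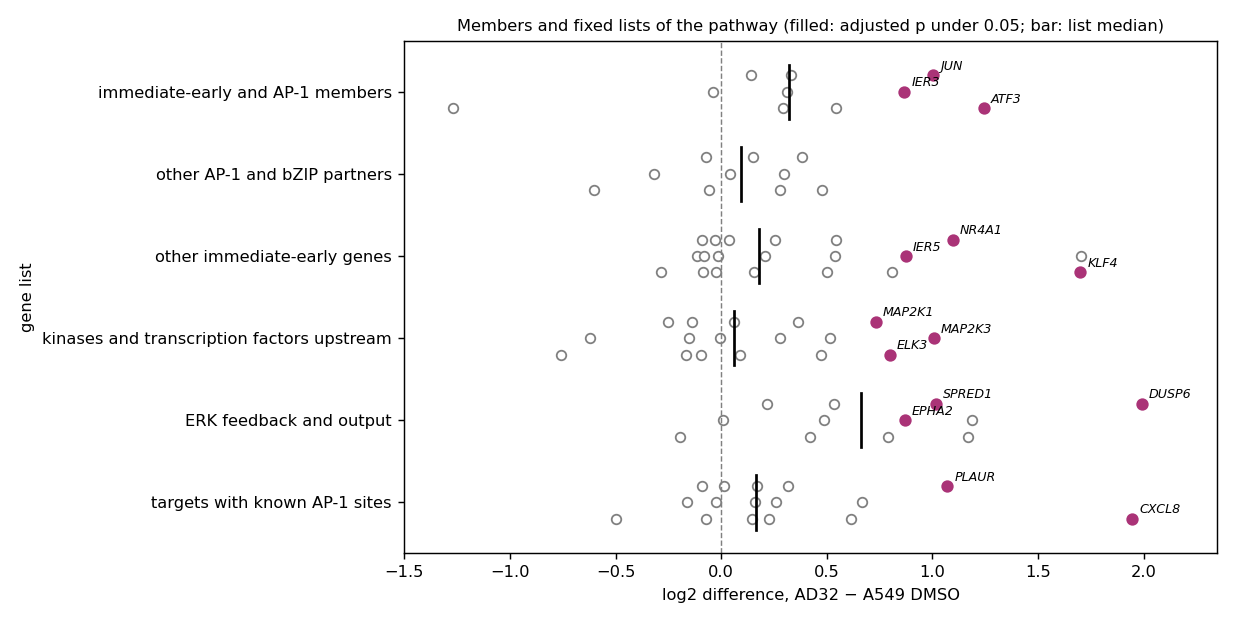
Log2 difference of AD32 from A549 in DMSO for the 10 members and for the 75 genes with a value in 5 lists, a point per gene, with the list median as a bar. Members and lists were chosen with earlier results of these data known. Filled points passed the adjusted p over all genes, 3 among the members and 11 among the lists, and all of them lie above 0.

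In treated A549 against DMSO, 0 of the 75 list genes were called, where 0.372% of all genes were. Against treated A549, AD32 had 4 called higher and 2 lower (1.28% and 2.46% of all genes). NR4A1 was 3.43-fold (adjusted p = 0.00583) and KLF4 3.06-fold higher (0.00585), with ELK3 at 1.64-fold (0.0455) and SPRED1 at 1.61-fold (0.0493). NR4A1 read 8.88 to 9.65 in AD32, and its treated arrays (7.48 and 7.72) lay below every DMSO array (8.08 to 8.55). All 4 calls ended without either treated array, when adjusted p ran up to 0.0763, 0.0733, 0.304 and 0.322. ELK3 and SPRED1 also ended without AD32 replicate 1 (0.12 and 0.119) or 2 (0.104 and 0.121) or A549 DMSO replicate 2 (0.0712 and 0.0601), 3 (0.0814 and 0.0933) or 4 (0.0625 and 0.095), and SPRED1 without AD32 replicate 3 (0.0565). The cytokine gene LIF was 2.79-fold lower in AD32 (adjusted p = 0.045). LIF read 9.09 and 8.51 in treated A549 and 6.91, 6.97 and 8.08 on AD32 replicates 1 to 3. The last lay above every DMSO array (7.80 to 7.84). IL6, another cytokine gene, was also called lower (adjusted p = 0.0485), but its AD32 arrays (3.53 to 4.20) and treated replicate 1 (4.83) lay below the lower quartile of their arrays and only treated replicate 2 (5.59) above it, so no fold is given. Both calls ended without AD32 replicate 1 or 2, A549 DMSO replicate 2, 3 or 4, or either treated array, with adjusted p up to 0.33 for LIF and 0.406 for IL6, and that of IL6 also without AD32 replicate 3 (0.0771). Against AD32, the AD32 4E-BP1 array had 1 list gene called (0.58% of all genes were called lower), KLF4, lower by 3.04-fold (adjusted p = 0.04) and at 7.52, near A549 in DMSO. That call ended without AD32 replicate 1 or 2 (adjusted p = 0.111 and 0.102), A549 DMSO replicate 2, 3 or 4 (0.0808, 0.0871 and 0.085) or either treated array (0.0895 each).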

How the data were processed

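Expression was measured on 10 Affymetrix arrays of human cell lines. The deposited values are log2 signals per probe set, and the submitters' processing notes name Affymetrix Expression Console. Version, summarisation, normalization settings and genome build: not given in the sources used here. The log2 scale was judged from the values. Of 24308 probe sets, 19262 named 1 gene, 1720 several and 3326 none in the annotation used. Genes with several probe sets took the one with the highest mean, which left 18279 genes, renamed by gene ID where RefSeq held it.

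Differences were tested with limma 3.58.1 in R 4.3.3 (lmFit, eBayes, two-sided, Benjamini-Hochberg over all genes), with 4 group means and 1 spread over all 10 arrays (6 residual degrees of freedom). The labels call the samples biological replicates without saying how they were grown apart, so p-values measure only the spread between these samples, which may be technical. The number of arrays limits the precision. Named genes were the members, EIF4EBP1, and at most 4 called genes per list and comparison with the smallest p. FOSB and GADD45A were named after their values were seen. Members and lists were chosen with earlier results of these data known. The fit was tested on simulated data. Motifs were searched with Python 3.11.15. Alternatives are given in the closing section, and leaving out A549 DMSO replicate 1 together with AD32 replicate 3 was added after seeing the data.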

Additional observations from a re-analysis of the deposited data

Results flagged for a closer look

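A549 DMSO replicate 1 stood far from the other 3 DMSO arrays for FOS, KLF4 and EIF4EBP1, by the share of the group's range that its gap to the nearest array took up. FOS was 9.09 there against 7.50 to 7.64, a share of 0.912. KLF4 was 7.69 against 7.33 to 7.37 (0.878), and EIF4EBP1 was 10.23 against 9.47 to 9.52 (0.934). The limit was Dixon's 95% critical value for 4 samples, which chance passes in about 1 of 20 groups. It was passed by 1 of 10 members (10%), by 2 of 14 other named genes (14.3%) and by 13.7% of all genes. The flagged genes are thus about as frequent as among all genes. Only this group was large enough to be examined in this way.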

How the results depend on the processing

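Across 960 recomputed member differences, 897 kept their side of the threshold, 22 lost a call, 41 gained one and 0 called differences changed sign. Calls of members in AD32 against A549 in DMSO numbered 3, and 6 with array weights, 1 with only the compared groups, 1 with the replicate block (ATF3), 1 with A549 DMSO replicates 3 and 4 averaged, and 8 without A549 DMSO replicate 1 and AD32 replicate 3. In treated A549 they numbered 0, and 8 with array weights and 5 without those 2 arrays. In AD32 against treated A549 they numbered 0, and 4 with array weights, 1 with only the compared groups and 4 without those 2. For AD32 4E-BP1 against AD32 they numbered 0, and 1 with array weights and 2 without those 2. With single replicates left out, members called ranged from 0 to 1 (treated A549), 0 to 5 (AD32 against DMSO), 0 to 3 (AD32 against treated A549), 0 to 1 (AD32 4E-BP1 against AD32) and 0 to 0 (AD32 4E-BP1 against A549 in DMSO).

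Called genes over the whole table in treated A549 were 68, and 36 with the dimmest genes removed, 4573 with array weights, 106 with only the compared groups, 4 with the replicate block, 15 with replicates 3 and 4 averaged, 2656 without the 2 arrays, and 8 to 643 with single replicates left out. For AD32 against DMSO they were 1045, and 4215 with array weights, 650 with the replicate block, 525 averaged, 5164 without the 2 arrays, and 512 to 2164. For AD32 against treated A549 they were 683, and 1869, 353 with only the compared groups, 2769 without the 2 arrays, and 132 to 1215. For AD32 4E-BP1 against AD32 they were 168, and 107 with the dimmest genes removed, 1282 with array weights, 13 with only the compared groups, 99 averaged, 3005 without the 2 arrays, and 99 to 656. Against A549 in DMSO they were 0, and 3 with array weights, and 0 to 0. The cause of these shifts was not tested.

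Whether equal replicate numbers pair the arrays could not be settled. Deviations of same-numbered A549 DMSO and AD32 arrays correlated at 0.68, -0.26 and 0.41 across genes. Treated A549 replicates 1 and 2 gave 0.06 and -0.06 with A549 DMSO, and 0.08 and 0.10 with AD32. A pair of unlike number, A549 DMSO replicate 2 and AD32 replicate 3, gave 0.53. Deviations sum to 0 within a group, so these correlations are tied to each other and cannot decide it. With the replicate block, JUN (adjusted p = 0.109), IER3 (0.0999), IER5 (0.0506), MAP2K1 (0.0738) and PLAUR (0.103) lost their call in AD32 against A549 in DMSO, and ELK3 (0.0658), SPRED1 (0.123), LIF (0.0501) and IL6 (0.104) in AD32 against treated A549. No other named gene did. The AD32 4E-BP1 array carries no replicate number, so its comparisons had no such fit. Scaling moved the median of all genes by less than 0.1. Signal over background could not be judged without detection calls.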
